A study of Mus musculus with 2 samples.

Results

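H/ACA small nucleolar RNAs (snoRNAs, symbols beginning Snora) and small Cajal body RNAs (scaRNAs, symbols beginning Scarna) were examined as fragments in small RNA libraries of mouse spleen cells. The members were chosen from the annotation: a sequenced tag counted when it was identical, in sense, to a GENCODE M21 snoRNA or scaRNA transcript of such a symbol and to no miRNA hairpin. This gave 49 genes, 40 Snora and 9 Scarna, of which 37 had 30 or more reads in both libraries together and 2 (Snora15 and Snora35) had none. Of the 11818 annotated genes with 30 or more reads, these 37 are the subject here. Reads in antisense to the same transcripts numbered 0 in both libraries.

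Cells of C57BL/6J mice carrying CD11c, an integrin of dendritic cells and some other myeloid cells, were bound to CD11c microbeads from spleen, stained with an anti-Ia antibody against MHC class II, and sorted into an Ia_high and an Ia_low population at a stated purity above 95%. Neither group was treated, and no genotype, age or number of mice is given in the labels. Each population gave 1 library. A ratio therefore compares 2 libraries with no replicate check, and no p-value is given. The Ia_high library held 16388303 reads of 1185709 distinct tags and the Ia_low library 13739811 reads of 758783 tags. The labels call both populations dendritic cells. By distinct mRNA fragments, 5 of the 8 dendritic cell markers were at least 2-fold lower in Ia_low, among them Flt3 (153 fragments in Ia_high, 5 in Ia_low) and Xcr1 (42 and 0). Also among the 5 was H2-Ab1 (703 and 138), an MHC class II gene, so the sort on Ia itself bears on its call. All 6 measured monocyte markers were at least 2-fold higher, among them Ace (84 and 294). Of all mRNA genes, 6.13% were called higher and 9.42% lower. Of 323633 mRNA fragments in Ia_high and 132996 in Ia_low, the monocyte list had 635 and 1123 in all and the T cell list 225 and 2, with Cd3e and Cd3g at 0 in both. The proliferation markers Mki67 (155 and 5) and Top2a (80 and 2) and 3 of 6 macrophage markers were also lower, while 2 of 3 plasma cell markers were higher. Of the 5 neutrophil markers, only Csf3r (22 and 44) was called higher. Mmp8 (5 and 5) was not called, and S100a8 (1 and 2), S100a9 (3 and 1) and Ly6g (0 and 0) had too few fragments. The part of these cell types in the snoRNA ratios was not tested. In bulk samples of this kind, fewer cells of a type and less RNA per cell cannot be told apart.

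H/ACA RNAs fold into a pair of hairpins joined by a single-stranded H box and end in an ACA box, and their proteins include the pseudouridine synthase dyskerin (Dkc1). Most guide the conversion of uridine to pseudouridine in ribosomal RNA, while scaRNAs act on the RNAs of the spliceosome and may carry C/D box parts. Most are cut from introns of host genes, and short fragments of them, some of them made by Dicer, are known from many small RNA libraries. Of the Snora transcripts, 38 of 40 held ACA starting 5 to 7 nt before the end, against 2.06% of the 97 C/D box (Snord) transcripts. ANANNA, the H box pattern, lay within 10% of the length around the middle in 36 of 40, against 33.0% of Snord transcripts. Of the 9 Scarna transcripts only 4 held the ACA and 6 the H box pattern. Scarna6, Scarna17, Scarna9, Scarna10 and Scarna2 had no such ACA.

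The sequences below carry the results that follow. Each is the annotated transcript (GENCODE M21, GRCm38), written 5′ to 3′ as DNA, with the most abundant tag or tags in capitals.
Snora44: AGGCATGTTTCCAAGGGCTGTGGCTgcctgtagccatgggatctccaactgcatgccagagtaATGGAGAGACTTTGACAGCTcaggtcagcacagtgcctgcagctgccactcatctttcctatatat
Snora41: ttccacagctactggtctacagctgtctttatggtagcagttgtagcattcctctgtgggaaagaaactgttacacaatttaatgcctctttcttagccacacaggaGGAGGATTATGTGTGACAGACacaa
Snora24: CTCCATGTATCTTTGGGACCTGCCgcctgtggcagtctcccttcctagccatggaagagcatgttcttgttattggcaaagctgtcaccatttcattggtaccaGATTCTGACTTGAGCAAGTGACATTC
Snora31: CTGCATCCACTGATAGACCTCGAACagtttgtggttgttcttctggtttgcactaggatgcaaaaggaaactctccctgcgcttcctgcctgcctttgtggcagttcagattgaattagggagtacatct
Snora16a: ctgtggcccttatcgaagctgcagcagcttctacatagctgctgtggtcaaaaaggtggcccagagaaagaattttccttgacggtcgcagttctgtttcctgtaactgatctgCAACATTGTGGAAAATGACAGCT
Scarna6: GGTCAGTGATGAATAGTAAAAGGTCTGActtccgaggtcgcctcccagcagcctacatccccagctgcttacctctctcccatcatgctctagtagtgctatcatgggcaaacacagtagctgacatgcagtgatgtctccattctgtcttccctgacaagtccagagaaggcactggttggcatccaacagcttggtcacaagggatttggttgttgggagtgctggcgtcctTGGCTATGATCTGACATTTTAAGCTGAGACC
Snora41 lies at chr1:63179004-63179135, plus strand, in an intron of Eef1b2, a translation elongation factor gene. Snora44 (chr4:132309941-132310069) and Snora16a (chr4:132309464-132309600) lie on the plus strand within an exon of a spliced transcript of the noncoding gene Snhg12. Snora24 (chr3:123507937-123508066, minus strand) lies in Snhg8, Snora31 (chr14:75847905-75848034, plus strand) in an intron of Tpt1, and Scarna6 (chr1:87784556-87784820, plus strand) in an intron of the autophagy gene Atg16l1.

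H/ACA and scaRNA fragments were more abundant in the Ia_low library. They took 7265 reads of 361 tags in Ia_high (0.0443% of all reads) and 30517 reads of 455 tags in Ia_low (0.222%). Counts were scaled to reads per 1000000 reads identical to miRNA hairpins (CPM, 5877604 such reads in Ia_high and 2698993 in Ia_low), which gave 1236 and 11307 CPM and a ratio of 9.15 (95% counting interval 8.64 to 9.69). The interval covers counting error only. It is exact (Clopper-Pearson) on counts divided by 4 (Ia_high) or 9 (Ia_low), the read number that tags most often had, because reads amplified from 1 molecule are not independent. Scaled to all reads the ratio was 5.01, since that scaling shifts every log2 ratio by 0.87. Without Snora62, which alone gave 19199 of the Ia_low reads, the totals were 7043 and 11318 reads and the ratio 3.50 (3.25 to 3.76). Of the distinct tags, 143 were found in both libraries, 218 in Ia_high only and 312 in Ia_low only. The 143 shared tags held 75.9% of member reads in Ia_high and 85.3% in Ia_low. The overlap over all tags of the libraries was not counted, so these counts cannot be read as a trait of the members.

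By gene, 28 of the 37 measured members (75.7%) were at least 2-fold higher in Ia_low with an interval that excluded 1, and 0 were lower. The same rule called 28.1% of all 11818 annotated genes higher and 2.83% lower. C/D box snoRNA genes were called higher at nearly the same share, 77.6% of 76, and spliceosomal snRNA genes at 66.7% of 18, so the share is not particular to the H/ACA class. The median log2 ratio was 2.31 for the members, 1.82 for Snord genes, 2.14 for snRNA genes and 0.78 for all genes. Scaled to all reads, 20 members (54.1%) were higher and 2 (5.41%, Snora41 and Snora36b) lower, against 9.63% and 9.65% of all genes. The counted reads of Snora36b mostly overlap a mature miRNA, as given below. On that scale 43.4% of Snord and 55.6% of snRNA genes were higher. Scaled to the reads of the other snoRNA genes, 11 (29.7%) were higher and 4 (10.8%) lower, and the share of all genes on that scale was not counted.

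**Figure D1:**
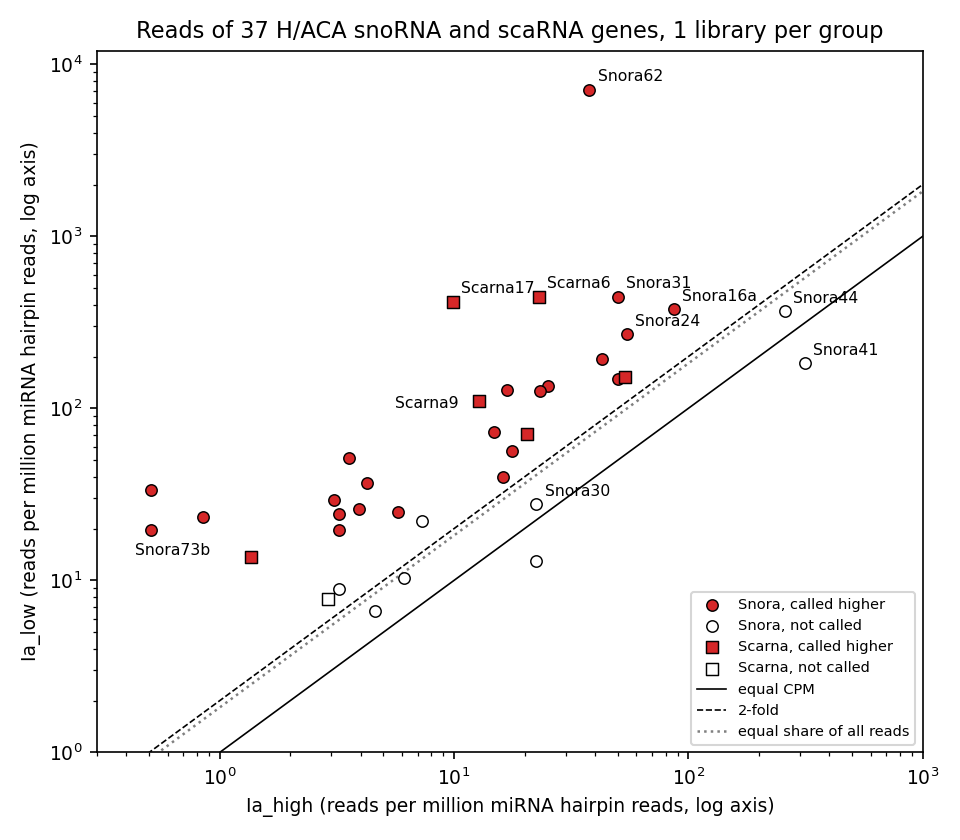
CPM of the 37 members with 30 or more reads in both libraries together, Ia_high on the x axis and Ia_low on the y axis, both log axes; circles are Snora genes, squares Scarna genes, filled where called higher in Ia_low (at least 2-fold, with an interval that excludes 1), and genes at 0 reads are drawn at a floor of 3 reads. Snora62 stands far above the rest at 37.8 and 7113 CPM, Snora41 and Snora44 are the most abundant in Ia_high and lie near the line of equal CPM, and the 28 called genes are filled; Snora70, Snora23 and Scarna13 lie above the 2-fold line but were not called.

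The libraries also differed in length over all their RNA, which touches every ratio above. Tags of 18 to 24 nt made up 74.0% of all reads in Ia_high and 49.5% in Ia_low, and tags of 31 to 44 nt 1.63% and 14.3%. Among members, 25 reads of 31 to 44 nt in Ia_high stood against 3369 in Ia_low, a ratio of 293 (136 to 785), while Snord genes had a ratio of 70.9 and mRNA of 17.7 in the same class. At 20 to 24 nt, the length of miRNAs, the members had 4789 reads in Ia_high and 4079 in Ia_low, a ratio of 1.85 (1.66 to 2.07), and 1.02 when scaled to all reads. Snord genes at that length had a ratio of 2.41 and snRNA genes of 4.38. At 25 to 30 nt the members' ratio was 6.05 (5.27 to 6.95), from 1503 and 4174 reads. The shortest tags went the other way outside Snora62, with 204 and 18 reads at 18 nt and 545 and 62 at 19 nt. Over all RNA these lengths were also rarer in Ia_low, at 2.10% and 0.842% of reads (18 nt) and 3.69% and 0.756% (19 nt). The part of the length difference in the gene ratios was not tested beyond these classes.

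**Figure D2:**
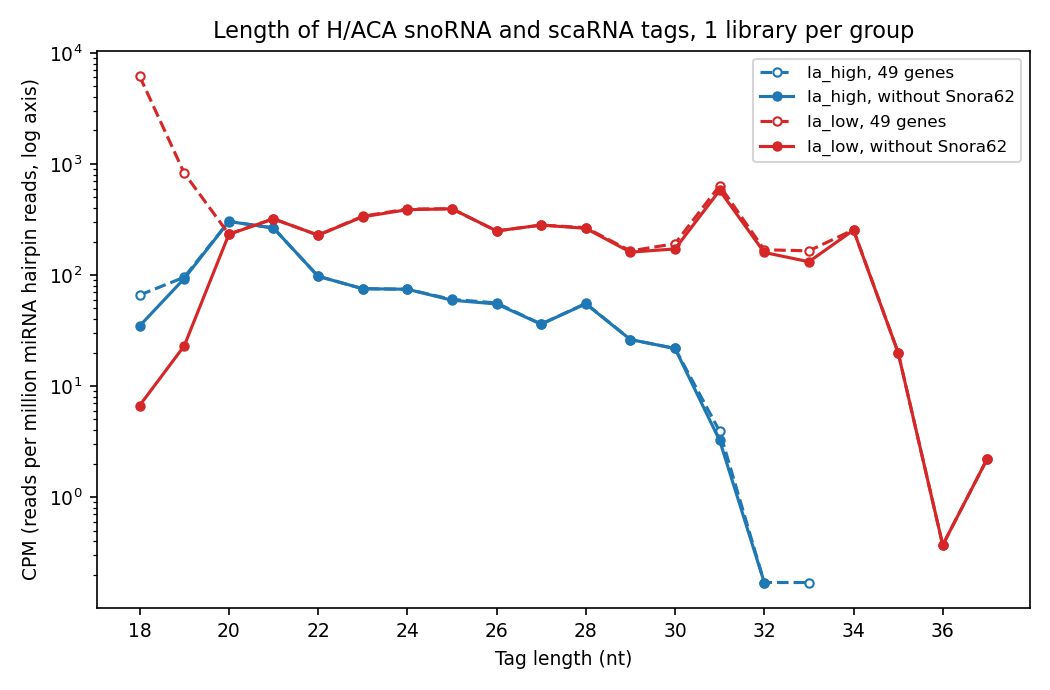
CPM of member tags by tag length (nt), log axis, for Ia_high (blue) and Ia_low (red), with all 49 genes (dashed) and without Snora62 (solid). In Ia_high the tags peak at 20 and 21 nt, with 1782 and 1556 reads; in Ia_low the peak at 18 nt (16665 reads) is 18 reads without Snora62, and a second peak stands at 31 nt (1720 reads).

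Snora62 was the most abundant member of Ia_low. It had 222 reads in Ia_high (37.8 CPM) and 19199 in Ia_low (7113 CPM), a ratio of 188 (144 to 251), the highest of the measured members. A pair of tags that begin at the first or second base and both end at base 19 made up 89.2% of its reads in Ia_high and 97.8% in Ia_low. The 18-nt form had 183 reads in Ia_high and 16640 in Ia_low, and both forms together were 61.6% of all member reads in Ia_low. In the predicted fold they lie in the 5′ arm of the first hairpin. The 18-nt tags of all members other than Snora62 had 204 reads in Ia_high and only 18 in Ia_low. The 4 bases of the transcript that follow these tags are the same as those that follow the most abundant tag of the libraries in 1030 of the 1455 reads of 38 nt or more that begin with it. Whether the trimming of adaptors set the end at base 19 was not tested, and it bears on the ratio of 188 and on the total of 9.15. Snora62 tags from the 5′ end that stop elsewhere were also more abundant, with 15 reads in Ia_high and 393 in Ia_low (ratio 57.1, 20.2 to 231), and those of 31 nt or more had 5 and 282. Snora62 lies in an intron of Rpsa, which encodes a protein of the small ribosomal subunit. The host mRNA had 98 distinct fragments in Ia_high and 41 in Ia_low, a ratio of 1.02 (0.689 to 1.48) when scaled to all mRNA fragments, a scale other than that of the snoRNA reads.

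Snora41 and Snora44 were the most abundant members of Ia_high, and neither was called different. Snora41 had 1843 reads in Ia_high (314 CPM) and 493 in Ia_low (183 CPM), a ratio of 0.583 (0.432 to 0.772) that did not reach 2-fold. Tags that start at base 108 made up 94.5% and 86.0% of its reads, and most ended at base 127 or 128 inside the ACA box, without the last bases of the mature RNA. Snora44 had 1514 reads in Ia_high (258 CPM) and 996 in Ia_low (369 CPM), a ratio of 1.43 (1.15 to 1.78). Its reads came mainly from a pair of places with unlike ratios. Tags that start at base 64, just after the H box match at bases 58 to 63, had 1314 reads in Ia_high and 534 in Ia_low, a ratio of 0.885 (0.660 to 1.17). Tags from its 5′ end had 130 and 393 reads, a ratio of 6.58 (4.09 to 10.7). The H box search and the folds are predictions from the sequence.

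The next most abundant members were higher in Ia_low over most of their fragments. Snora31 rose from 294 to 1205 reads (ratio 8.93, 6.67 to 12.0), and 86.7% and 93.9% of these began at its 5′ end. Snora24 had 322 and 729 reads (ratio 4.93, 3.58 to 6.80), shared between its ends: the 5′ end gave 159 and 378 reads and the 3′ end 154 and 298. Both ends of Snora24 were higher in Ia_low, with ratios of 5.18 (3.27 to 8.20) and 4.21 (2.57 to 6.89) whose intervals overlap. Snora16a had 510 and 1019 reads (ratio 4.35, 3.35 to 5.65), of which 97.5% and 93.2% ended at the 3′ end. Snora21 in Rpl23 had 296 and 399 reads, a ratio of 2.94 (1.98 to 4.32), and 98.3% and 99% of its reads held the 3′ end. Of its reads, 296 and 372 were of tags that also match another annotated snoRNA copy, so its level is uncertain. The same holds for much of Snora57 (95 and 79 such reads), Snora30 (118 and 75), Snora65 (23 and 64), Snora81 (113 and 214), Snora26 (2 and 53) and Snora70 (33 and 51), and for 46 and 6 reads of Snora7a, 33 and 40 of Snora75 and 10 and 35 of Snora9.

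Other called members had fewer reads. Snora75 in the nucleolin gene Ncl (148 and 364 reads, ratio 5.36), Snora81 in Eif4a2 (137 and 342, ratio 5.44), Snora52 in Rplp2 (99 and 346, ratio 7.61) and Snora61 in Snhg12 (87 and 198, ratio 4.96) all had intervals that excluded 1. Snora69 (21 and 139 reads, ratio 14.4, 5.09 to 48.9) and Snora64 (18 and 79, ratio 9.56, 2.76 to 39.1) had wide intervals. Snora26, with 2 and 90 reads, had a ratio of 98 that its interval left between 8.47 and 107296. Of the called genes, Snora57 was nearest to the 2-fold threshold at 2.48 (1.13 to 5.16). Snora7a had 104 and 152 reads (ratio 3.18, 1.62 to 6.10) and Snora20 34 and 67 (4.29, 1.38 to 13). With tags that carry added 3′ bases, Snora7a had 266 and 178 reads. Its ratio was then 1.46 (0.835 to 2.44) and it was not called. Snora65 (23 and 70 reads), Snora28 (19 and 66) and Snora9 (19 and 53) had ratios of 6.63, 7.56 and 6.07. Scaled to all reads, 8 of the 28 higher calls were lost: Snora57, Snora7a, Snora20, Snora9, Snora21, Scarna10, Scarna2 and Scarna8. Among genes not called, Snora70 (43 and 60 reads) had a ratio of 3.04 with an interval from 0.971, Snora23 (19 and 24) one of 2.75 from 0.373, Snora3 (36 and 28) one of 1.69 and Snora33 (27 and 18) one of 1.45. Snora30 had 132 and 75 reads, a ratio of 1.24 (0.503 to 2.70). Within it, tags of 20 to 24 nt had 88 reads in Ia_high and 0 in Ia_low, where 0 allows 3 reads or 1.11 CPM, while tags holding its 3′ end had 38 and 75. Below the minimum, 10 genes had 3 to 28 reads each, and of these only Snora2b (12 and 0) and Snora47 (3 and 0) had reads in Ia_high alone.

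Snora73a, Snora73b and Snora74a were the members listed for the processing of ribosomal RNA. Snora73b, in an intron of Rcc1, had 0 reads in the Ia_high library and 53 in the other, and the interval of its ratio begins at 5.63. Its near copy Snora73a had 0 and 28 reads, below the minimum, and 8 and 23 further reads fitted both, so Ia_high need not be at 0 for either gene. With all of these, both copies together had 8 and 104 reads, a ratio of 28.3 (6.25 to 261). Snora74a had 25 and 100 reads, a ratio of 8.71 (3.0 to 28.0), and no tag touched either of its annotated ends. Of these 3 RNAs, the 2 that were measured were higher in Ia_low, where 28.1% of all genes and 77.6% of Snord genes were higher. So few genes show no trait of this group.

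Of the 9 scaRNA genes, 7 were measured, 6 were higher in Ia_low and 0 lower, with a median log2 ratio of 3.11, where 28.1% of all genes and 77.6% of Snord genes were higher. Scaled to all reads, 3 of the 7 were higher, against 9.63% of all genes and 43.4% of Snord genes. Scarna6 had 135 reads in Ia_high (23.0 CPM) and 1204 in Ia_low (446 CPM), a ratio of 19.4 (13.2 to 29.2). By exact match the 5′ end gave 58.5% of the Ia_high reads and 10.4% of the Ia_low reads, and the 3′ end 8.15% and 84.8%. With tags that carry added bases, the 5′ end gave 80 of 188 reads in Ia_high (42.6%, 28.3 to 57.8) and the 3′ end 63 (33.5%, 20.4 to 48.8), so no end was clearly favoured there, while in Ia_low the 3′ end gave 96.7%. The 31-nt tag that closes the transcript, in capitals above, had 7 reads in Ia_high and 1011 in Ia_low. Scarna17, whose RNA guides modification of spliceosomal RNAs, had 58 and 1125 reads (9.87 and 417 CPM, ratio 42.2, 24.5 to 78.6), and its tags of 31 nt or more had 0 and 775 reads. Scarna9 had 75 and 297 reads (ratio 8.62, 4.75 to 16.1), and 191 of the latter were a single 31-nt tag from its 5′ end that had 0 reads in Ia_high. Scarna10, a guide for the U5 RNA of the spliceosome, had 315 and 410 reads (ratio 2.83, 1.92 to 4.13). Scarna2, a guide for the U2 RNA, had 120 and 191 (ratio 3.47, 1.89 to 6.25) and Scarna8 8 and 37 (ratio 10.1, 1.47 to 111). Scarna13, with 17 and 21 reads, was not called (2.69, 0.304 to 16.9).

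Fragments were not spread evenly along the transcripts. In Ia_high 77.5% of member reads (exact binomial 95% interval 75.5 to 79.4, on counts divided as above) had their midpoint in the 3′ part of the transcript, past its middle, and 25% (23.6 to 26.5) in Ia_low. Without Snora62 these shares were 79.9% and 67.4%, and over distinct tags they were 58.7% (53.5 to 63.9) and 58.9% (54.2 to 63.5), so the difference between the libraries was in a few abundant tags. In the predicted folds of 31 Snora transcripts with reads, Snora62 left out, the 3′ arm of the 3′ hairpin held 79.6% of reads in Ia_high and 58.6% in Ia_low, and the 5′ arm of the 5′ hairpin 15% and 31.7%. The inner arms, on both sides of the H box, held the rest. Snora44 had no fold of both hairpins and is not among the 31. Its reads that start just after the H box numbered 1314 in Ia_high and 534 in Ia_low, against 240 and 628 inner-arm reads counted.

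**Figure D3:**
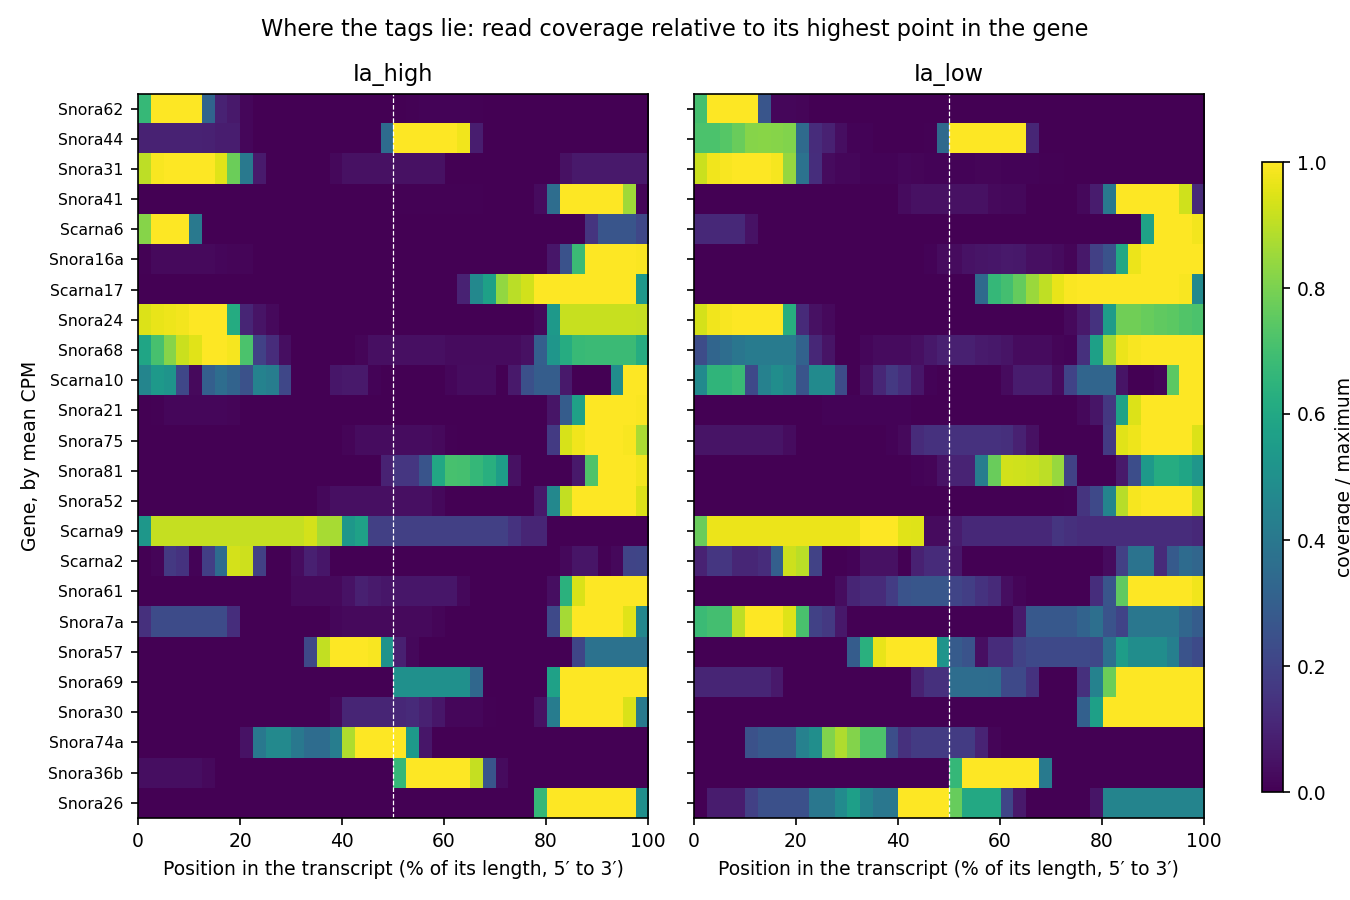
Read coverage along the 24 members of highest mean CPM (rows) in Ia_high (left) and Ia_low (right), as position in percent of the transcript from 5′ to 3′, with the colour giving coverage relative to the highest point of that gene in that library and the dashed line marking the middle. Most genes are covered at 1 or both ends; Snora44 is covered just past the middle in both libraries and also at the 5′ end in Ia_low, and Scarna6, by exact match, is covered mainly at the 5′ end in Ia_high and at the 3′ end in Ia_low.

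For the 23 members with 30 or more reads in each library, the main place was compared. Tags were classed as 5′ end (start at base 1 or 2), 3′ end (holding the last or last but 1 base) or internal. The main place was the same in both libraries for 17 of the 23, the most used start agreed within 1 nt for 14 and the most used end for 15. In Ia_high 6 genes had mostly 5′ end, 10 internal and 7 3′ end tags, and in Ia_low 6, 8 and 9. Snora7a, Snora20, Snora30, Snora68, Snora81 and Scarna6 were those that differed. By exact match, Snora7a had 11 reads at its 5′ end in Ia_high and 64 in Ia_low (ratio 12.7, 2.81 to 82.9). Its 3′ part had 83 and 61 (1.60, 0.565 to 3.95). A further 162 and 26 Snora7a reads carried added 3′ bases and are not in this comparison.

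Place and length together separated tags with unlike ratios. Among tags of 20 to 24 nt, those at the 5′ end had 230 reads in Ia_high and 575 in Ia_low (ratio 5.44, 3.75 to 7.91) and those at the 3′ end 884 and 1764 (4.35, 3.57 to 5.29). Internal tags of the same lengths had 3675 and 1740 reads, a ratio of 1.03 (0.878 to 1.21). Most of the internal reads were from Snora41 and Snora44. Without these and Snora62, internal tags had 648 and 729 reads and a ratio of 2.45 (1.85 to 3.22), whose interval still lay below that of 5′ end tags at 5.14 (3.52 to 7.52) and of 3′ end tags at 4.35 (3.57 to 5.29). At 25 to 30 nt and again without the 3 genes, the ratios were 5.58 (5′ end), 5.26 (internal) and 7.24 (3′ end), and their intervals overlapped. At 18 to 19 nt, with only Snora62 left out, 3′ end tags had 436 and 60 reads (ratio 0.300, 0.115 to 0.649). Internal tags there had 261 and 7 (0.0584, 0.000587 to 0.402) and 5′ end tags 52 and 13 (0.544, 0.0332 to 2.88). In Snord genes at 20 to 24 nt the ratio was 2.0 at the 5′ end, 3.06 for internal tags and 2.70 at the 3′ end, so internal tags were not the lowest there.

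**Figure D4:**
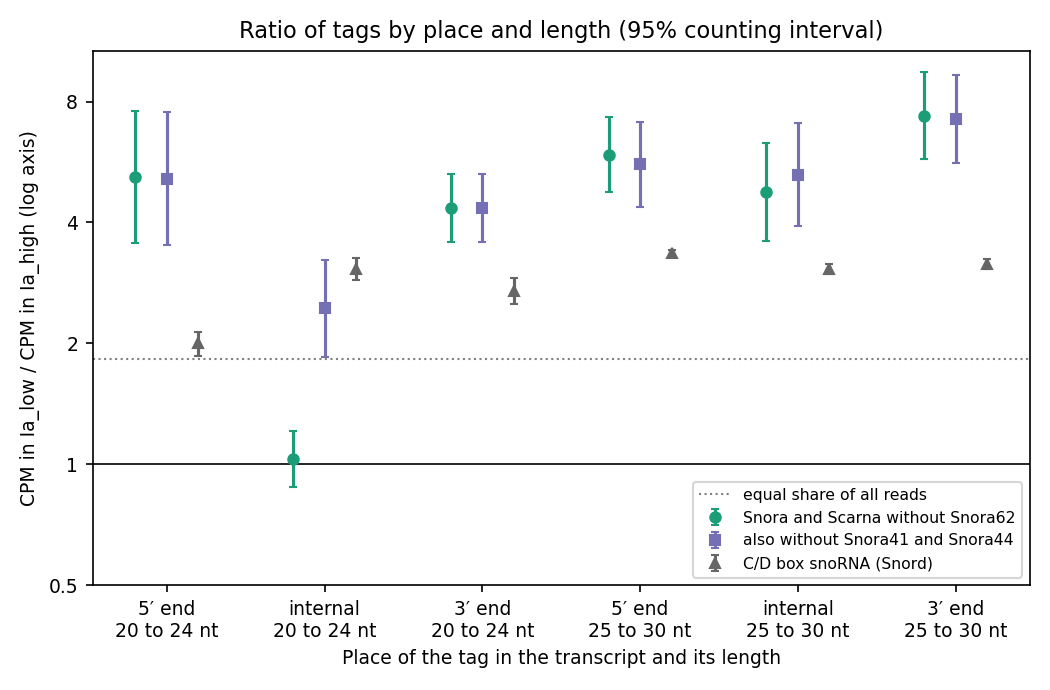
Ratio of CPM in Ia_low over Ia_high (log axis) for tags by place in the transcript and length class, for members without Snora62 (circles), members also without Snora41 and Snora44 (squares) and Snord genes (triangles); bars are 95% counting intervals and the dotted line is the ratio of equal share of all reads. Internal tags of 20 to 24 nt lie at 1.03 with Snora41 and Snora44 and at 2.45 without them, below the end tags.

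Some reads carried bases beyond the matched stretch. Tags with no annotated match were trimmed by up to 3 nt at the 3′ end, and 4068 reads in Ia_high and 7602 in Ia_low then matched a member and are not in the counts above. Snora41 stood out in both libraries. Its 21-nt tag at bases 108 to 128 was found with an added T, where the transcript continues with A:
Snora41 with added T: ggaggattatgtgtgacagacT
The form with the added T (in capitals) had 2979 reads in Ia_high and 1360 in Ia_low, against 954 and 240 for the form without it, so 75.7% (72.9 to 78.4) and 85.0% (78.9 to 89.9) of the reads with this start and end carried it. At 507 and 504 CPM it was the most abundant Snora41 form, with a ratio of 0.994 (0.829 to 1.19). Exact and added-base reads of Snora41 together numbered 5081 and 1997, a ratio of 0.856 (0.739 to 0.988), against 0.583 for exact tags alone. Whether another genome copy encodes the T was not tested, because no genome sequence was used.

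At Scarna6 and Snora17 the added base lies past the annotated end, so it may be encoded.
Scarna6 with added T: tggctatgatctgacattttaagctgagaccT
This 32-nt tag had 14 reads in Ia_high and 4762 in Ia_low, more than the 31-nt form without the T (7 and 1011). With all such tags Scarna6 reached 188 and 6235 reads, a ratio of 72.2 (53.7 to 99.2), against 19.4 by exact match. Snora17 had 5 and 63 exact reads and 173 and 534 with added bases, nearly all a single A at the 3′ end, and its ratio was 7.30 (4.92 to 10.9) with them and 27.4 (4.05 to 669) without. In Snora44 the tag at bases 64 to 83 was followed by AAA in 66 and 69 reads. These were 6.71% (3.92 to 10.6) and 16.8% (7.40 to 30.8) of the reads with that start and end, and these intervals overlap. Snora7a had 104 and 152 exact reads and 162 and 26 with added bases, and with them its higher call was lost.

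**Figure D5:**
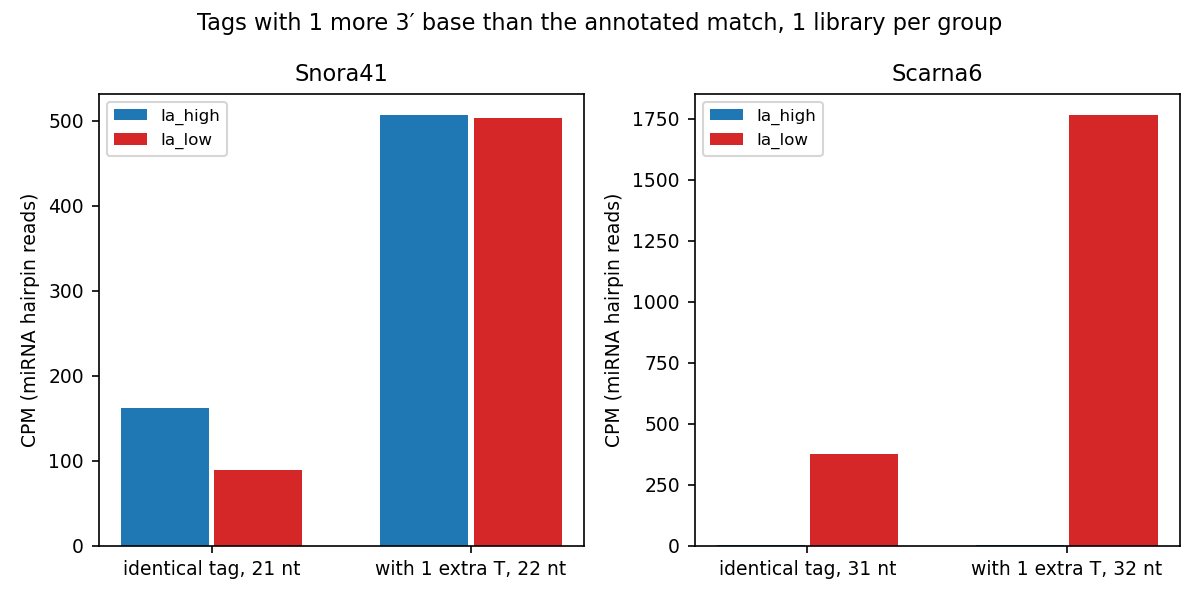
CPM of the Snora41 tag at bases 108 to 128 (left) and the Scarna6 tag at bases 235 to 265 (right), identical to the annotation or with 1 extra T, in Ia_high (blue) and Ia_low (red), 1 library each. The Snora41 form with T reaches 507 and 504 CPM, while both Scarna6 forms are at 1.19 and 2.38 CPM in Ia_high and at 375 and 1764 CPM in Ia_low.

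Members grouped by host gene gave similar shares. Of 11 measured members in ribosomal protein genes 8 were higher in Ia_low (median log2 ratio 2.18), of 6 in Snhg genes 4 (2.21), of 16 in other genes 12 (2.68) and of 4 without a named host 4 (3.29). No group had a lower member, and over all genes 28.1% were higher. Scaled to all reads, the higher members were 6 of 11, 3 of 6, 9 of 16 and 2 of 4 in the same order, and 2 in other genes were lower. By distinct mRNA fragments of 20 to 30 nt, 28 of the 40 host genes were measured, 0 were higher and 2 lower in Ia_low, with a median log2 ratio of -0.30. Only protein-coding transcripts were counted for this, so noncoding hosts among the 40, such as Snhg12 and Snhg8, could not be measured. Over all mRNA genes 6.13% were higher and 9.42% lower, so the hosts' count of lower genes is near the background. The lower hosts were Ncapd2 (18 and 1 fragments), which holds Scarna10, and the chaperonin gene Tcp1 (81 and 14), which holds Snora20. Fragments of Eef1b2, the host of Snora41, numbered 117 and 37 (ratio 0.770, 0.517 to 1.12).

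Genes for the H/ACA particle were thinly covered. Of 13 such genes 6 had 10 or more fragments, and 0 passed the call in either direction. Dkc1 had 11 fragments in Ia_high and 3 in Ia_low, the core protein genes Nop10 15 and 6 and Nhp2 14 and 3, the assembly factor gene Nufip1 18 and 4, and Nolc1 and Tcof1, for nucleolar phosphoproteins, 11 and 1 and 9 and 4. Every interval of these ratios held 1, so differences were not detectable at this depth. The 5 genes listed for the maturation of 3′ ends were all measured and 0 were called. They were Parn, a poly(A) exonuclease (18 and 2), Tent4b (31 and 11) and Tent4a (10 and 4), which add short tails, Exosc10 of the nuclear exosome (29 and 9) and the cap methylase Tgs1 (27 and 11). Terc, the telomerase RNA that shares the H/ACA fold, had 16 and 15 reads.

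Several H/ACA genes overlap annotated miRNA hairpins, and the tags they share were kept out of the counts. These were 7895 reads in Ia_high and 3064 in Ia_low, more than all other member reads of Ia_high, with a ratio of 0.845 (0.751 to 0.949). Most matched Scarna3a (Mir1843b), Scarna3b (Mir1843a) or both, and 744 and 406 reads matched Snora36b (Mir664). Their lengths were those of miRNAs: 95.5% and 97.8% were of 20 to 24 nt. The RefSeq mature sequences (GRCm38.p6) show how close the pair is, with the seed (bases 2 to 8) in capitals.
miR-1843a-5p: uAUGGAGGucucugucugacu
miR-1843b-5p: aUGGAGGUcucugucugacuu
Tags identical to miR-1843a-5p had 1166 and 403 reads and those identical to miR-1843b-5p 746 and 274. In tags not contained in the hairpin, Scarna3b had 0 and 24 reads and Scarna3a 3 and 11. Snora36b tags not contained in the hairpin had 132 and 35 reads, a ratio of 0.577 (0.145 to 1.64), the lowest of the measured members beside Snora41. Of these reads 96.2% and 100% start at base 68. Their most abundant tag holds the whole miR-664-5p sequence with a further base at each end, so they are not clearly H/ACA fragments.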

How the data were processed

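The deposited values are whole-number counts of reads per distinct tag, with the tag's length, as the authors left them, unscaled, per the file contents. Per the labels' protocols, RNA under 30 bases was cut from a gel, ligated to adaptors, amplified for 12 cycles and read on a Solexa sequencer. The labels name no molecular identifiers, and trimming and filtering steps are not stated in them. Tags (18 to 44 nt) were matched in sense and without mismatch to all GENCODE M21 transcripts, and a tag that fitted several member genes (3 tags) was given to none. A gene was called at 2-fold or more, with 30 or more reads in both libraries together, when the widened 95% interval excluded 1. Folds of hairpins came from ViennaRNA 2.7.2. The genes named are the 12 most abundant, the 10 highest and 10 lowest ratios among those called, genes at 0 in 1 library, all measured scaRNAs, and the pathway lists. The matching was checked by plain string search on a sample of the real tags. The call was tested on simulated counts that used the same reads per tag as the interval, so that assumption itself was not tested. Some sequences and results, also of genes under this rule, are not reported here. Members, lists and rules were chosen with earlier results of these data known. Alternatives covered scaling, lengths, tags, read minimum, fold, interval, added bases and the split of the transcript.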

Additional observations from a re-analysis of the deposited data

Results flagged for a closer look

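Reads outside the counted tags were found well above the 3 reads that a count of 0 allows. The Snora41 tag with 1 extra T had 2979 reads in the Ia_high library and 1360 in the Ia_low library. The Scarna6 tag with 1 extra T had 14 reads in Ia_high and 4762 in Ia_low. Snora17 tags with extra 3′ bases had 173 and 534 reads. Tags that member transcripts share with miRNA hairpins had 7895 and 3064 reads.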

How the results depend on the processing

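The total ratio of 9.15 kept its direction under every alternative run. It was 5.01 scaled to all reads, 5.33 centred on the median of all annotated genes, 3.19 scaled to other snoRNA reads, 1.97 by distinct tags, 8.17 at 18 to 30 nt, 1.85 at 20 to 24 nt, 7.33 with up to 3 nt trimmed and 4.80 without the most abundant tag of each gene. Chosen after seeing the data, it was 3.50 without Snora62, 5.81 also without Snora41 and Snora44, and 6.05 at 25 to 30 nt. The count of 28 higher genes moved beyond 1.5 times to 11 scaled to other snoRNA reads, 10 by distinct tags and 12 of 27 genes at 20 to 24 nt. The count of 0 lower genes became 2 scaled to all reads or centred, 4 scaled to other snoRNA reads, 1 at 20 to 24 nt and 1 at 1.5-fold. The share of all annotated genes was counted only for scaling to miRNA hairpin reads and to all reads. The counts under the other settings therefore have no background to be read against. The log2 ratio of single genes changed sign as follows. Scaled to other snoRNA reads, 8 genes turned negative, of which 2 had been called: Scarna10 (-0.02) and Snora57 (-0.21), besides Snora44 (-1.0), Snora30 (-1.21), Snora3 (-0.76), Snora33 (-0.98), Snora23 (-0.06) and Scarna13 (-0.09). None of the others had been called. Scaled to all reads they were Snora44 (-0.35), Snora30 (-0.56), Snora3 (-0.11) and Snora33 (-0.33), and the same 4 turned when centred. By distinct tags they were Snora30 (-0.73), Snora3 (-0.94), Scarna13 (-0.36) and Snora41 (0.02). At 18 to 30 nt Snora30 was -0.22, at 20 to 24 nt Snora30 was -3.75 with a floor of 3 reads and Snora44 -0.03, at 25 to 30 nt Snora41 was 0.87, and without the most abundant tag of each gene Snora3 was -0.35. The cause was not tested.

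The share of reads in the 3′ part, 77.5% in Ia_high and 25% in Ia_low, was 78.9% and 22.2% split at the H box, 58.7% and 58.9% over distinct tags, 79.9% and 67.4% without the most abundant gene, 90.0% and 77% at 20 to 24 nt, 78.7% and 16.3% for transcripts with ACA 3 nt from the end, and 65.1% and 67.2% without Snora62, Snora41 and Snora44. The share of reads of 18 to 24 nt, 79.0% and 75.3%, was 58.2% and 32.3% over distinct tags, and 36.5% in Ia_low without Snora62.

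The alternatives that need the genome (tags with 1 locus, transcripts extended by 10 nt) were not run. No paired analysis was possible because there was 1 library per group. A library at 0 reads allows 0.510 CPM in Ia_high and 1.11 CPM in Ia_low, so lower calls are harder to reach than higher ones.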
